A study of Mus musculus with 24 samples.

Results

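Toll-like receptors recognise microbial products and pass the signal through the adaptor MyD88 and the IRAK kinases to the IκB kinase (IKK) complex. The IKK complex marks the inhibitor IκBα for degradation, which frees NF-κB dimers to enter the nucleus and switch on inflammatory genes. In adipose tissue the pathway is known from both adipocytes and the macrophages that gather there in obesity. The genes described here are 10 of the 54232 genes in the count table. They were chosen by symbol from this pathway and not by a rule on their values, but with earlier results of these data known. They are the receptors Tlr4 and Tlr2, the adaptor Myd88, the kinase Irak1, the IKK subunits Chuk and Ikbkb, the NF-κB subunits Nfkb1, Nfkb2 and Rela, and the inhibitor Nfkbia.

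RNA was sequenced from adipose tissue of 24 male C57BL6 mice in 4 groups of 6, with 1 library per mouse. Partial nephrectomy (PNx) leaves a fraction of the kidney mass and models renal failure, and sham-operated mice served as its controls. Every animal, controls included, received an intraperitoneal lentivirus whose adiponectin promoter, active in adipocytes, drove either GFP or NaKtide, a peptide derived from the Na,K-ATPase and designed to block its signalling through Src. The groups were Control (sham, GFP), NaKtide (sham, NaKtide), PNx (nephrectomy, GFP) and PNx+NaKtide (nephrectomy, NaKtide). The mice were 10 weeks old by the description of the series, whereas the methods of the study give a range of ages at purchase, before surgery.

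The libraries held 679250 to 2979505 counts, and ranged from 1538612 to 2366069 in Control, 679250 to 2053464 in NaKtide, 1619842 to 2979505 in PNx and 1281905 to 1907222 in PNx+NaKtide. Levels are given in CPM, counts relative to the TMM-scaled size of the library. A count of 0 allows a level of up to 0.739 to 5.91 CPM, depending on the library. These limits cover counting error only. The 26116 genes with more than 10 counts over the 24 libraries were tested, and all 10 members were among them. The labelled tissue was checked by marker genes. All 10 adipocyte markers passed the count filter, and their summed level was 252 to 728 CPM in Control, 243 to 4698 in NaKtide, 219 to 5804 in PNx and 99.0 to 1011 in PNx+NaKtide. All 12 epididymis markers passed as well, with sums of 634 to 1895 CPM in Control, 16.8 to 1884 in NaKtide, 21.2 to 1729 in PNx and 779 to 1954 in PNx+NaKtide. In bulk tissue, fewer cells of a type and less RNA per cell cannot be told apart.

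Several libraries stood apart from their group. PNx replicates 1, 2 and 3 had the lowest macrophage marker sums of all 24 libraries (172, 283 and 188 CPM, against 329 to 454 in Control). Their testis germ cell marker sums were 1147, 1163 and 1315 CPM, against 336 to 805 in Control and 274 to 1169 in PNx+NaKtide. Their B cell marker sums were 77.1, 62.2 and 41.4 CPM, against 4.08 to 16.0 in Control, 84.2 in PNx replicate 6 and 139 in NaKtide replicate 6. Their mesothelial marker sums were 6.90, 10.5 and 13.1 CPM, against 26.0 to 52.0 in Control. Most counts of this list of 6 genes were those of Krt19 (1119 in all), and no other gene of it had more than 102. PNx replicate 6 had the highest sums of adipocyte (5804 CPM), endothelial (610 CPM) and erythrocyte markers (1628 CPM), and NaKtide replicate 6 had the next highest of each (4698, 505 and 245 CPM). NaKtide replicate 6 also had a skeletal muscle marker sum of 5664 CPM. PNx+NaKtide replicates 2, 3 and 4 were close to one another, with a chi-square per degree of freedom of 1.93 to 2.60 between pairs of libraries, against 20.7 to 30.3 to the other 3 of their group. Their testis germ cell marker sums were 872, 1071 and 1169 CPM, and those of the other 3 were 274 to 347. Among the 10 macrophage markers, Adgre1 had 13 counts in all and was at 0 in 17 libraries, and Csf1r, with an opposite-strand overlap, had 13863. The part of these differences in the results on the members was not tested, and results that rest on these libraries are given with and without them. Leaving out PNx+NaKtide replicates 2, 3 and 4 together was chosen after the data were seen. By the same chi-square measure, pairs in other groups were also close. They were Control replicates 5 and 6 (1.57), Control replicates 3 and 4 (2.62), NaKtide replicates 1 and 3 (2.09) and NaKtide replicates 4 and 5 (2.96). None of these pairs was left out together.

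The counts also carry a limit of strand. Genes with exons that overlap an opposite-strand gene were 16.8% of the genes found in the annotation and held 79.9% of the counts (70.2 to 86.5% over the libraries). Among the mitochondrial mRNAs, the only one read from the minus strand (mt-Nd6) had 403137 counts per kb, whereas the 12 read from the plus strand had 5968 counts per kb, a ratio of 67.6. The library kit keeps strand, and the strand setting of the counting was not given in the sources used here. Since the setting is not known, the limit may bear on the counts of every member, which was not tested. Myd88 and Nfkb2 share exon bases with opposite-strand genes. No exon base of the other 8 members is shared in this way.

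Several members are themselves known targets of NF-κB, Nfkbia and Nfkb2 above all, so their promoters are shown here. RefSeq promoters (GRCm38.p6, 250 bases before to 50 after a transcript start) were found for 7 members, in 10 windows, and those of Tlr4, Ikbkb and Nfkb1 were not in the table. The NF-κB (kappaB) consensus of 10 bases was searched on both strands with overlapping matches kept. It matched 7 of the 10 windows, in Tlr2, Nfkbia, Nfkb2 and Irak1 (4 of the 7 members), and 8.46% of all 32851 promoters. Overlapping windows of Irak1 and of Nfkb2 hold the same match, so the count of windows includes some sites more than once. A match describes the letters and is not evidence of binding. The 100 bases before the start are given for Nfkbia (chr12:55492648-55492747, minus strand), for the first of 3 windows of Nfkb2 (chr19:46304637-46304736, plus strand) and for the first of 2 windows of Irak1 (chrX:74023922-74024021, minus strand). Capitals mark the matches, which began 29 bases before the start in Nfkbia, 39, 38 and 11 before it in Nfkb2, where the first pair overlap, and 18 before it in Irak1.
Nfkbia: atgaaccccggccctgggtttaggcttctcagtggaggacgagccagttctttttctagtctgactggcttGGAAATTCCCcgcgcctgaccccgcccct
Nfkb2: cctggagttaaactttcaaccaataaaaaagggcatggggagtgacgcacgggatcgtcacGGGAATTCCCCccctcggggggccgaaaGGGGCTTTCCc
Irak1: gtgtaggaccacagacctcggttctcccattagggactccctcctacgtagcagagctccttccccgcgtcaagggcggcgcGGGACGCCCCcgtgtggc
No match to these letters was found in the windows of Myd88, Rela and Chuk.

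Levels of the members were compared per length, as the deposited FPKM, over the 24 libraries. Nfkb2 was highest at 12.8 ± 5.37 FPKM (SD, n = 24), followed by Myd88 at 11.05 ± 5.48. Rela (3.79 ± 1.60), Irak1 (2.89 ± 1.79) and Nfkbia (2.88 ± 2.83) formed the middle of the order. Ikbkb (0.664 ± 0.239 FPKM), Nfkb1 (0.372 ± 0.282) and Chuk (0.305 ± 0.340) were lower, and the receptors Tlr2 (0.126 ± 0.153) and Tlr4 (0.102 ± 0.118) were lowest. Means of neighbours in this order lay closer than the larger SD of the pair, apart from Myd88 and Rela and from Ikbkb and Nfkb1. These SDs pool the 4 groups, and the genes were not compared within each library. The SD of Nfkbia includes PNx replicate 6 at 14.5 FPKM. The 2 members at the top of the order are those that share exon bases with an opposite-strand gene.

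**Figure D1:**
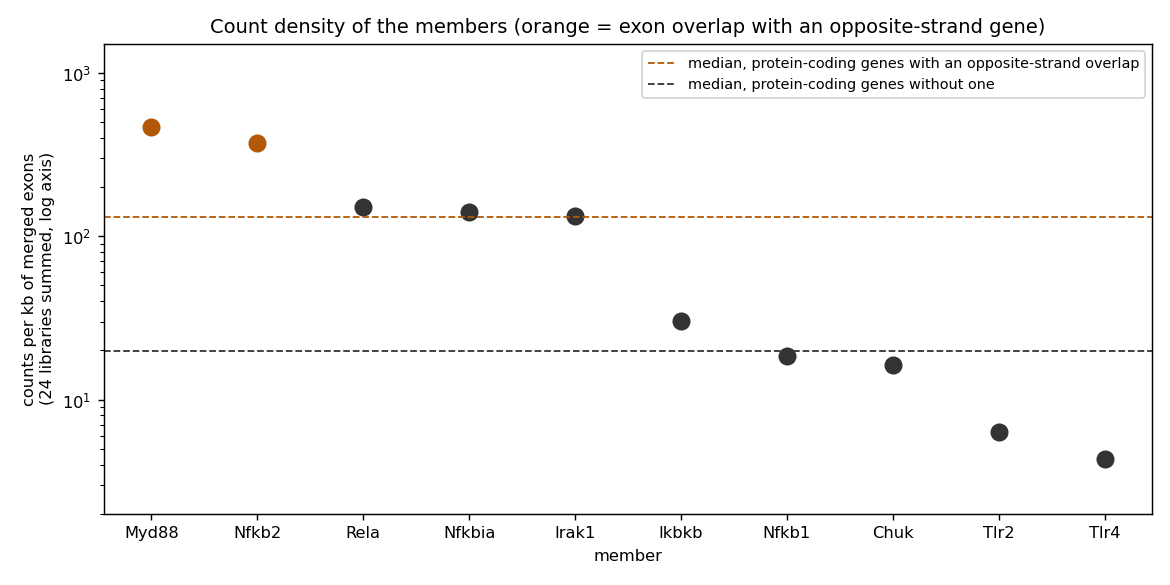
Total counts over the 24 libraries per kb of merged exons (y axis, log scale) for each member (x axis), with members that share exon bases with an opposite-strand gene in orange. Myd88 (466 counts per kb) and Nfkb2 (374) lie above the median of protein-coding genes with such an overlap (131, orange dashed line), and Tlr2 (6.30) and Tlr4 (4.32) lie below the median of those without one (19.9, black dashed line).

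Tlr4 and Tlr2, the receptors for lipopolysaccharide and for bacterial lipoproteins, were barely counted. Tlr4 (chr4:66827584-66930284, plus strand) had 24 counts in all and was at 0 in 8 libraries. The 6 PNx libraries held 13 of these counts, of which 8 came from PNx replicate 6, and no other library held more than 2. Tlr2 (chr3:83836272-83841767, minus strand) had 19 counts in all, was at 0 in 13 libraries and reached at most 3 counts, again in PNx replicate 6. The log2 fold change in PNx against Control was 1.38 ± 0.90 for Tlr4 and 0.88 ± 0.96 for Tlr2 (edgeR, BH-adjusted p-values 0.309 and 0.553), and it was 0.36 for Tlr4 without PNx replicate 6. No difference between the groups was detectable for either receptor at these counts, and the PCR of Tlr4 by the study is described with Chuk below. Among the 14 other receptors and co-receptors listed, 9 passed the count filter, and Tlr7, Tlr8 and Tlr13 had 4, 2 and 1 counts in all.

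Myd88, the adaptor of most Toll-like receptors and of the interleukin-1 receptor, was lower in PNx than in Control and higher in PNx+NaKtide than in PNx, and neither difference passed edgeR's test at a BH-adjusted p-value under 0.1. It lies on chromosome 9 (chr9:119335934-119341411, minus strand). Its level in Control ran from 18.5 to 54.3 CPM with a median of 42.6. Control replicates 5 and 6 were lowest, at 18.5 and 23.4 CPM, and replicates 1 to 4 were at 42.5 to 54.3. In PNx the level ran from 4.44 to 22.0 CPM with a median of 12.2, and replicates 4, 5 and 6 were at 18.1, 22.0 and 21.9. All 6 PNx libraries were below the Control mean, 4 of them below the lowest Control library, and PNx replicates 1, 2 and 3 were lowest at 4.44, 6.06 and 6.31 CPM. In PNx+NaKtide the level ran from 25.0 to 42.1 CPM (median 30.4), and in NaKtide from 27.6 to 65.9 CPM (median 34.4). All 6 PNx+NaKtide libraries were above the highest PNx library in TMM-scaled CPM, which held for 0.356% of all genes tested. This separation depends on the scaling. PNx replicate 6 had 58 counts of 1908143 (TMM factor 1.391), and PNx+NaKtide replicate 5 had 30 of 1510300 (0.796). Relative to total counts alone the groups overlapped. In the deposited FPKM they did not, with at most 7.61 in PNx and at least 9.10 in PNx+NaKtide.

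The group means were 37.5 ± 13.6 CPM in Control, 13.1 ± 8.38 in PNx, 31.9 ± 7.06 in PNx+NaKtide and 39.0 ± 14.7 in NaKtide (SD, n = 6). The log2 fold change of Myd88 in PNx against Control was -1.53 ± 0.41 (SE), with an unadjusted p-value of 0.000890 and a BH-adjusted p-value of 0.128 by edgeR. Between PNx+NaKtide and PNx it was 1.29 ± 0.41, with an unadjusted p-value of 0.00379 and a BH-adjusted p-value of 0.357 by edgeR. Both missed the threshold of 0.1, and they are not independent, since they share the 6 PNx libraries. Without PNx replicates 1, 2 and 3 the log2 fold changes were -0.95 and 0.66, with BH-adjusted p-values of 0.416 and 0.437 by edgeR. Without PNx+NaKtide replicates 2, 3 and 4 the latter was 1.44, with a BH-adjusted p-value of 0.0859 by edgeR. In NaKtide against Control it was 0.06 ± 0.40.

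In the bases they share, reads of Myd88 may not be told apart from those of Acaa1a, a peroxisomal enzyme of fatty acid oxidation on the opposite strand (chr9:119339676-119350299). The exons share 290 of the 2576 exon bases of Myd88, and Acaa1a had 6514 counts to the 1201 of Myd88. Acaa1a was at 208 ± 66.9 CPM in Control, 104 ± 38.1 in PNx, 177 ± 23.3 in PNx+NaKtide and 139 ± 25.8 in NaKtide. Within Control, Acaa1a was at 139 and 111 CPM in replicates 5 and 6 and at 226 to 272 in replicates 1 to 4. Its log2 fold changes were -0.9996 ± 0.29 in PNx against Control and 0.76 ± 0.29 in PNx+NaKtide against PNx (edgeR, BH-adjusted p-values 0.128 and 0.357). Both genes had their lowest 3 values in PNx replicates 1, 2 and 3. In NaKtide against Control the values stood apart, at -0.59 ± 0.29 for Acaa1a beside 0.06 ± 0.40 for Myd88, and the difference between the genes was not tested.

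**Figure D2:**
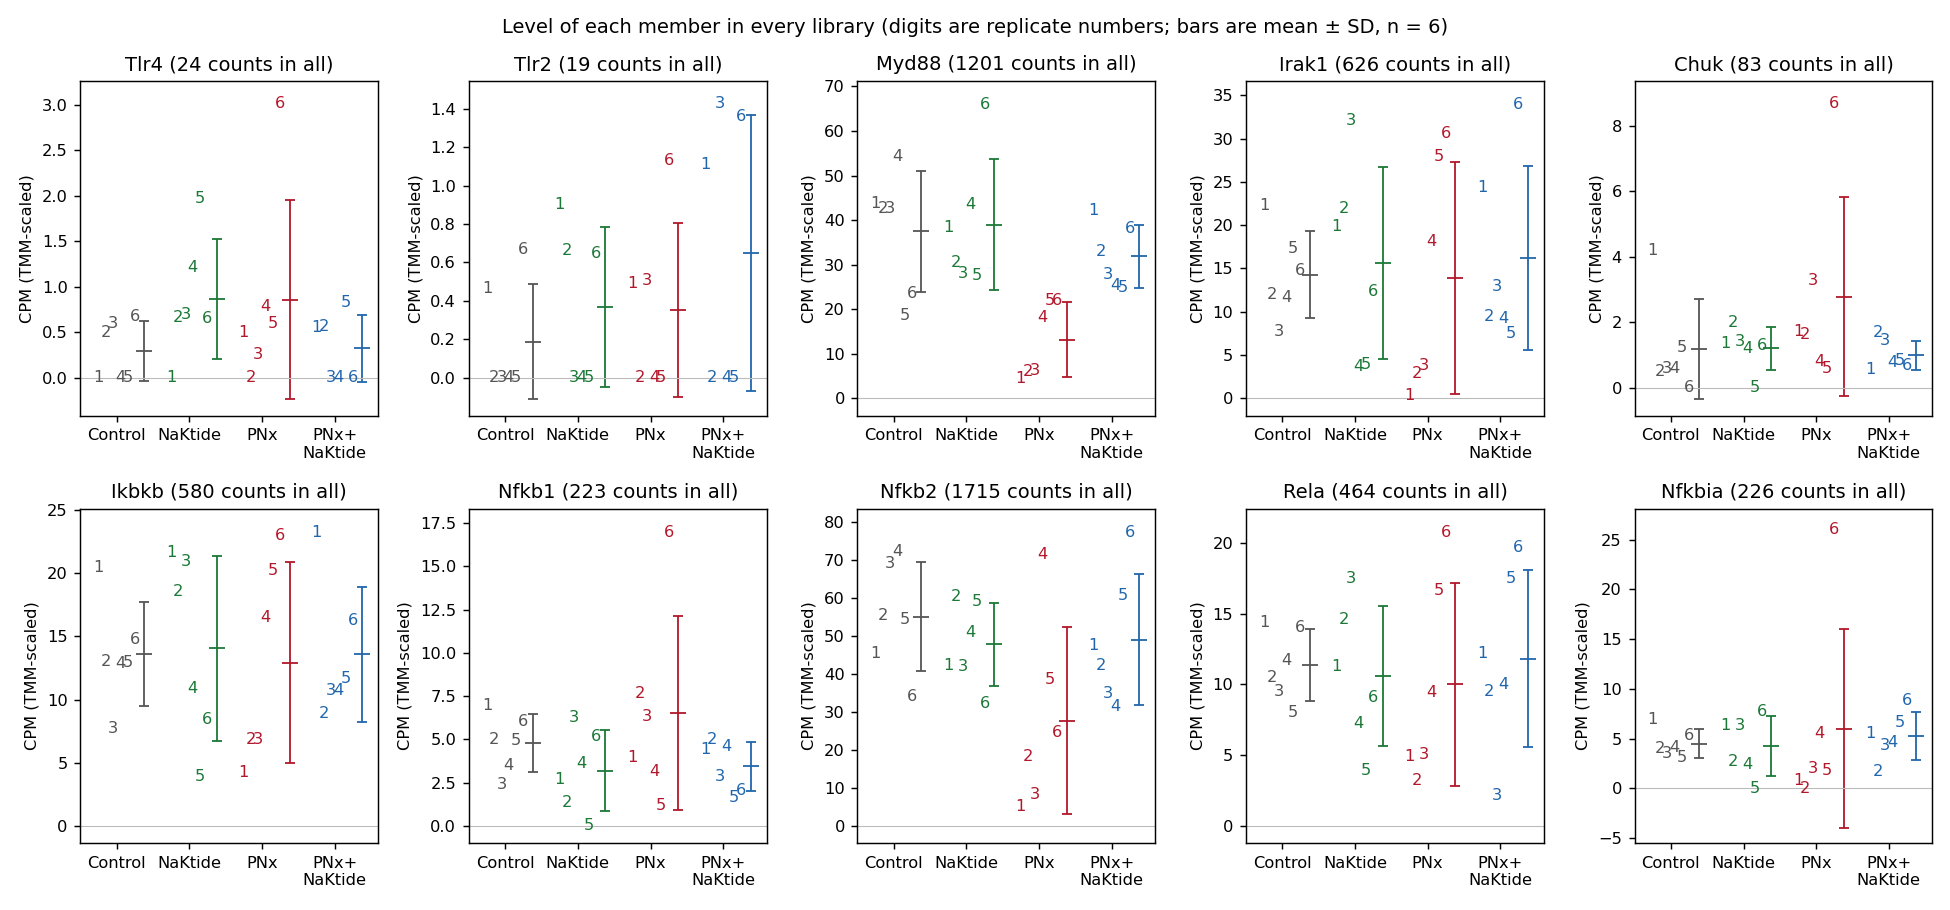
Level of each member in CPM after TMM scaling (y axis, a separate scale per panel) in the 4 groups (x axis), with each library drawn as its replicate number and bars giving the mean ± SD (n = 6). PNx replicates 1, 2 and 3 sit at the bottom of the PNx group for Myd88, Irak1, Ikbkb, Nfkb2 and Rela, and PNx replicate 6 sits at the top for 8 of the 10 members, such as Nfkbia at 26.0 CPM.

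Irak1, the kinase recruited by MyD88, varied more within the groups than between their means, which were 14.3 ± 5.07 CPM in Control, 15.6 ± 11.1 in NaKtide, 13.9 ± 13.4 in PNx and 16.2 ± 10.6 in PNx+NaKtide (SD, n = 6). Irak1 (chrX:74013914-74023918, minus strand) was at 7.69 to 22.3 CPM in Control (median 13.4), 3.63 to 32.1 in NaKtide (16.1), 0.246 to 30.6 in PNx (10.9) and 7.49 to 33.9 in PNx+NaKtide (11.2). In PNx, replicates 1, 2 and 3 stood at 0.246, 2.83 and 3.78 CPM and replicates 4, 5 and 6 at 18.1, 27.9 and 30.6, so that the group enclosed the whole Control range. The log2 fold change in PNx against Control was -0.06 ± 0.66, with a 95% interval from -1.42 to 1.30. It was positive with DESeq2 size factors (0.10) and with library size scaling (0.15). Without PNx replicates 1, 2 and 3 it was 0.78, and without PNx replicate 6 it was -0.49.

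Ikbkb, the catalytic IKK subunit of the canonical pathway, had close group means, from 12.9 ± 7.97 CPM in PNx to 14.1 ± 7.34 in NaKtide. Ikbkb (chr8:22659212-22706589, minus strand) was at 7.69 to 20.4 CPM in Control (median 13.0), 3.94 to 21.6 in NaKtide (14.7), 4.19 to 23.02 in PNx (11.7) and 8.92 to 23.2 in PNx+NaKtide (11.2). PNx replicates 1, 2 and 3, at 4.19, 6.86 and 6.81 CPM, were below every Control library. Its log2 fold change in PNx against Control was -0.09 ± 0.44 (95% interval -0.98 to 0.81), and it was 0.19 with DESeq2 size factors and 0.14 with library size scaling. The Spearman correlation of Ikbkb with Irak1 over the 24 libraries was 0.870, a description over libraries that share 4 groups and the libraries that stand apart.

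Chuk, the IKK subunit that also drives the noncanonical pathway and, with Tlr4, a gene the study itself picked for a PCR check, was thinly counted (83 counts, chr19:44073335-44107480, minus strand). The study reported that its PCR found Chuk and Tlr4 significantly raised in PNx, and that NaKtide reverted the rise. It also reported that the PCR matched its RNA sequencing, which it tested with DESeq2. Here DESeq2 called Chuk higher in PNx than in Control, where it called 29.7% of all genes, and did not call Tlr4. Between PNx+NaKtide and PNx it called neither. In the counts, Chuk was at 0 to 4.18 CPM in Control (median 0.588), 0 to 1.99 in NaKtide (1.32), 0.594 to 8.68 in PNx (1.67) and 0.554 to 1.67 in PNx+NaKtide (0.7997). PNx replicate 6 held 23 of the 49 counts of its group, and Control replicate 1 held 9 of the 14 counts of its own. Its log2 fold change was 1.17 ± 0.68 in PNx against Control and -1.46 ± 0.71 in PNx+NaKtide against PNx, with BH-adjusted p-values of 0.256 and 0.393 by edgeR. Without PNx replicate 6 these values were 0.44 and -0.74, and without Control replicate 1 the value in PNx against Control was 2.16. Ikbkg, which encodes the regulatory subunit of the same complex, is described with the pathway lists.

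Nfkb2, which encodes the NF-κB subunit of the noncanonical pathway, was at 55.2 ± 14.4 CPM in Control, 27.7 ± 24.6 in PNx, 49.1 ± 17.3 in PNx+NaKtide and 47.8 ± 10.9 in NaKtide (SD, n = 6), with no difference at a BH-adjusted p-value under 0.1 by edgeR with all libraries. It lies on chromosome 19 (chr19:46304320-46312385, plus strand). Its level ran from 34.1 to 72.3 CPM in Control (median 54.9), 32.3 to 60.4 in NaKtide (46.6), 5.17 to 71.5 in PNx (21.4) and 31.5 to 77.4 in PNx+NaKtide (45.0). In PNx, replicates 1, 2 and 3 were at 5.17, 18.2 and 8.33 CPM, replicate 6 at 24.5 was also below all Control libraries, and replicate 4 at 71.5 was near the top of Control. The log2 fold change was -1.01 ± 0.44 in PNx against Control, with an unadjusted p-value of 0.0307 and a BH-adjusted p-value of 0.169 by edgeR. Between PNx+NaKtide and PNx it was 0.84 ± 0.44, with a BH-adjusted p-value of 0.412 by edgeR. Without PNx replicates 1, 2 and 3 the values were -0.37 and 0.17, and without PNx replicate 4 they were -1.56 and 1.36.

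The exons of Nfkb2 share 299 bases with Psd, a guanine nucleotide exchange factor (chr19:46312087-46327156, minus strand), and 531 bases with the noncoding gene AC114539.1, which was not in the count table. Psd had 4917 counts to the 1715 of Nfkb2. It was at 169 ± 38.6 CPM in Control, 82.4 ± 61.4 in PNx, 121 ± 19.5 in PNx+NaKtide and 124 ± 30.3 in NaKtide. The log2 fold changes of Psd were -1.04 ± 0.37 and 0.56 ± 0.37 in the same comparisons, beside -1.01 and 0.84 for Nfkb2. Its lowest 3 values, 28.1, 47.7 and 30.8 CPM, were again in PNx replicates 1, 2 and 3.

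Of the other NF-κB subunits, neither had a BH-adjusted p-value under 0.1 by edgeR in any comparison. Rela, which encodes the main transactivating subunit (chr19:5637483-5648130, plus strand), was at 8.02 to 14.4 CPM in Control (median 11.1), 3.94 to 17.5 in NaKtide (10.2), 3.23 to 20.8 in PNx (7.23) and 2.14 to 19.7 in PNx+NaKtide (11.1). The first 3 PNx replicates, at 4.93, 3.23 and 5.05 CPM, were below every Control library, whereas replicates 5 and 6 were above every one. Its log2 fold change in PNx against Control was -0.19 ± 0.47 (95% interval -1.16 to 0.77), and was 0.07 with DESeq2 size factors and 0.09 with library size scaling. Nfkb1, which encodes a precursor and the subunit made from it (chr3:135584655-135691547, minus strand), was at 2.37 to 6.96 CPM in Control (median 4.97), 0 to 6.28 in NaKtide (3.17), 1.19 to 17.0 in PNx (5.13) and 1.66 to 5.02 in PNx+NaKtide (3.64). Here PNx replicate 6 at 17.0 CPM and replicate 2 at 7.67 CPM were above the highest Control library, and PNx replicates 1 and 3 lay within the Control range. The log2 fold change of Nfkb1 was 0.46 ± 0.54 in PNx against Control and -0.92 ± 0.55 in PNx+NaKtide against PNx. With PNx replicate 6 left out the former was -0.08 and the latter -0.38.

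Nfkbia, which encodes IκBα (chr12:55489410-55492647, minus strand), had most of its PNx counts in 1 library. It was at 3.08 to 6.96 CPM in Control (median 4.04), 0 to 7.76 in NaKtide (4.47), 0 to 26.0 in PNx (1.90) and 1.67 to 8.83 in PNx+NaKtide (5.07). PNx replicate 6 held 69 of the 90 counts of its group, and 4 of the other PNx libraries were below the lowest Control library. Its log2 fold change in PNx against Control was 0.41 ± 0.74, and without PNx replicate 6 it was -1.30. Against PNx, PNx+NaKtide gave -0.20 ± 0.74, which was 1.503 without that library and 0.32 without PNx+NaKtide replicates 2, 3 and 4. PNx replicate 6 also had the highest adipocyte, endothelial and erythrocyte marker sums, whose part in this value was not tested.

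Over the members as a group, none was called in PNx against Control at a BH-adjusted p-value under 0.1 by edgeR, which called 0.0766% of the 26116 genes tested (20 genes). At an unadjusted p-value under 0.05, Myd88 and Nfkb2 passed, both lower in PNx, whereas 25.4% of all genes passed, 18.5% higher and 6.88% lower. The median log2 fold change of the members was 0.17, and 5 of them lay above 0 and 5 below. The median over all genes was 0.36, and it moved to 0.76 with DESeq2 size factors and 0.70 with library size scaling. Relative to that median, Myd88 stood at -1.89, -2.04 and -1.99 and Nfkb2 at -1.37, -1.54 and -1.60 under the 3 scalings, and Irak1, Ikbkb and Rela, whose sign against 0 depended on the scaling, were at -0.42, -0.45 and -0.55 with the TMM scaling. DESeq2 called 2 members, Chuk higher and Myd88 lower, against 29.7% of all genes, and limma voom with sample weights called 7 against 63.8% of all genes, Chuk higher and Ikbkb, Irak1, Myd88, Nfkb2, Nfkbia and Rela lower. With edgeR on DESeq2 size factors, Chuk and Myd88 were called (33.3% of all genes). Myd88 alone was called with library size scaling (15.7%) and with the stricter filterByExpr filter, which kept 6 members (17.9% of 12050 genes). With 1 library left out, edgeR called Myd88 without Control replicate 5 (0.496% of all genes), PNx replicate 5 (23.2%) or PNx replicate 6 (14.8%). It called Myd88 and Nfkb2 without PNx replicate 4 (BH-adjusted p-values of 0.0375 and 0.0384), where it called 33.2% of all genes.

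No member was called by edgeR in PNx+NaKtide against PNx, and neither was any other gene (0%). Without PNx+NaKtide replicates 2, 3 and 4, edgeR called Myd88 alone among the members, and 14.6% of all genes. At an unadjusted p-value under 0.05, which 12.7% of all genes passed, Myd88 was higher and Chuk lower, against 4.07% and 8.6% of all genes in these directions. The members' median was 0.17 and that of all genes -0.37. DESeq2 called Myd88 alone (5.8% of all genes), and voom called Irak1, Myd88, Nfkb2 and Nfkbia (44% of all genes). NaKtide in sham mice gave no member at an unadjusted p-value under 0.05 (3.95% of all genes), with log2 fold changes from -0.51 to 1.14, and no member was called by edgeR, DESeq2 or voom (0%, 0.0115% and 0.00766% of all genes). Nephrectomy under NaKtide (PNx+NaKtide against NaKtide) likewise gave none at that level (4.09% of all genes), with values from -0.97 to 0.48, and no member was called by edgeR, DESeq2 or voom (0%, 0.00766% and 0%). The interaction, the difference in the effect of NaKtide between PNx and sham mice, was 1.23 ± 0.57 on the log2 scale for Myd88 (edgeR, unadjusted p-value 0.0389, BH-adjusted p-value 0.525). It was the only member under 0.05 there (9.27% of all genes), none was called by edgeR (0% of all genes) or DESeq2 (0.36%), and voom called 4 (25.5%).

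**Figure D3:**
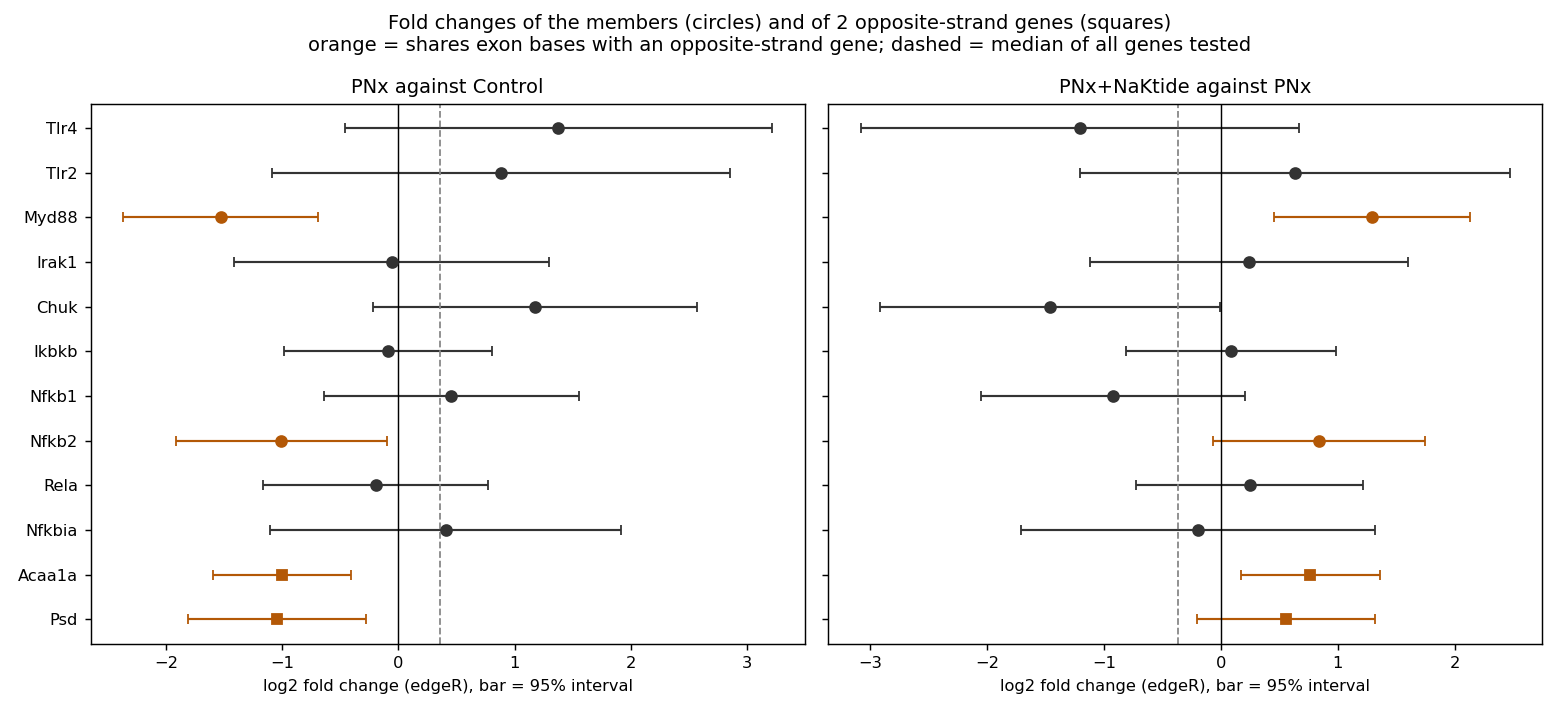
Log2 fold change (x axis) with its 95% interval for each member (circles) and for the opposite-strand genes Acaa1a and Psd (squares), in PNx against Control (left) and PNx+NaKtide against PNx (right). The members with shared exon bases and the 2 opposite-strand genes, in orange, lie on the same side of 0 in each panel, and the dashed lines mark the medians of all genes at 0.36 and -0.37.

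The order of the 6 PNx libraries recurred among the members. PNx replicates 1, 2 and 3 were all below replicates 4, 5 and 6 for Tlr4, Myd88, Irak1, Ikbkb, Nfkb2 and Rela, 6 of the 10 members, which was so for 20.5% of all genes tested. The place of Tlr4 in this count rests on 2, 0 and 1 counts in replicates 1, 2 and 3 and 1, 1 and 8 in replicates 4, 5 and 6, where library size alone puts replicate 1 below replicates 4 and 5. PNx replicate 6 was the highest PNx library for 8 members, all but Myd88 and Nfkb2, against 29.5% of all genes. Both comparisons with the PNx group include all 6 libraries.

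The genes whose level over the 24 libraries was most like that of a member were found by Spearman correlation of log2 CPM among 19440 genes with a mean of at least 1 CPM, for members with at least 240 counts. For Myd88 they were Rnd2 (0.914) and Tsen34 (0.885), and for Nfkb2 they were Bad (0.923) and Nudt19 (0.911). For Irak1 they were Pnn (0.932) and Ski (0.929), for Ikbkb Rnf145 (0.906) and Map3k1 (0.901), and for Rela Arrdc1 (0.877) and Galk1 (0.847). The 4 genes most like Myd88 and Nfkb2 share exon bases with an opposite-strand gene of their own, and the 6 others share none. The opposite-strand partners were less alike, Acaa1a to Myd88 at 0.646 and Psd to Nfkb2 at 0.723. Among the members, Ikbkb and Rela correlated at 0.759, Irak1 and Rela at 0.715, Irak1 and Nfkbia at 0.632, and Myd88 and Nfkb2 at 0.447. The most negative pairs were Nfkb1 with Nfkb2 at -0.594 and Chuk with Nfkb2 at -0.484. All these values come from the same 24 libraries, whose groups and depths they share.

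The rest of the pathway was followed in 5 lists of 81 genes, of which 70 passed the count filter, and none was called in any comparison by edgeR with all libraries. In PNx against Control, 11 were higher and 5 lower at an unadjusted p-value under 0.05, beside 18.5% and 6.88% of all genes, with a median of 0.52 over the lists and 0.36 over all genes. This split was 23 to 4 with DESeq2 size factors, beside 34.9% and 3.79% of all genes. Between PNx+NaKtide and PNx, 3 were higher and 4 lower (4.07% and 8.6% of all genes) with a median of -0.43, and the split was 3 to 15 with DESeq2 size factors (2.69% and 22.4%). DESeq2 called 22 of the lists' genes in the former comparison and 4 in the latter, beside 29.7% and 5.8% of all genes. The counts per list that follow are at an unadjusted p-value under 0.05, to be read against the same 18.5% higher and 6.88% lower of all genes. The counts above and below 0 are to be read against the median of 0.36 over all genes in PNx against Control. With that median, most genes tested lay above 0 as well.

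Among the adaptors and kinases, 2 of 21 were higher and 3 lower in PNx at that p-value, and 14 lay above 0 and 7 below. Ikbkg, which encodes the regulatory IKK subunit NEMO, was at 243 ± 116 CPM in Control, 64.0 ± 59.7 in PNx and 184 ± 31.9 in PNx+NaKtide. Within Control, Ikbkg was at 115 and 96.4 CPM in replicates 5 and 6 and at 248 to 389 in replicates 1 to 4. Its log2 fold change was -1.93 ± 0.50 in PNx against Control, and it was 1.53 ± 0.49 in PNx+NaKtide against PNx (edgeR, BH-adjusted p-values 0.128 and 0.357), and without PNx replicates 1, 2 and 3 they were -1.21 and 0.75. It shares 418 exon bases with the opposite-strand gene G6pdx. Ikbke, a kinase related to the IKK subunits, had a log2 fold change of -1.27 ± 0.51 in PNx against Control, which was -0.60 without PNx replicates 1, 2 and 3, and shares 224 exon bases with opposite-strand genes. Irak3, which restrains IRAK signalling, was at 4.83 ± 2.49 CPM in Control, 18.7 ± 13.8 in PNx and 7.29 ± 6.55 in PNx+NaKtide. For Irak3 the log2 fold changes in these comparisons were 1.95 ± 0.60 and -1.37 ± 0.59, and without PNx replicates 1, 2 and 3 they were 0.36 and 0.17. Without PNx+NaKtide replicates 2, 3 and 4 the latter was -2.61. Irak3 shares 220 exon bases with opposite-strand genes.

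In the NF-κB and IκB family, 2 of 9 were higher and 2 lower in PNx at that p-value, and 7 lay above 0 and 2 below. Bcl3, a nuclear IκB protein, had a log2 fold change of 2.17 ± 0.81, Nfkbil1 had -1.07 ± 0.43, and Nfkbid, another nuclear IκB protein, had -2.04 ± 0.82 on a level of 2.00 ± 1.43 CPM in Control. Without PNx replicates 1, 2 and 3 these values were -0.03, -0.40 and -1.42. Bcl3 and Nfkbil1 share exon bases with opposite-strand genes, and Nfkbid does not. Nfkbil1 had a log2 fold change of 0.98 ± 0.43 in PNx+NaKtide against PNx, and 0.27 without PNx replicates 1, 2 and 3.

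Of the negative regulators, 3 of 11 were higher in PNx and none lower at that p-value, and 8 lay above 0 and 3 below. Tollip, which binds and restrains IRAK proteins, was at 3.74 ± 1.33 CPM in Control and 14.97 ± 11.7 in PNx, a log2 fold change of 2.00 ± 0.58. Tollip levels in PNx replicates 1, 2 and 3 were 23.2, 29.5 and 21.7 CPM and in replicates 4, 5 and 6 they were 0.785, 2.97 and 11.7, and without the former the log2 fold change was 0.43. Tollip shares no exon base with an opposite-strand gene. Of the receptors and co-receptors, 2 of 9 were higher in PNx and none lower at that p-value, and 4 lay above 0 and 5 below. Cd36, a scavenger receptor and fatty acid transporter of adipocytes, was at 32.4 ± 74.6 CPM in PNx and 3.52 ± 4.86 in PNx+NaKtide, a log2 fold change of -3.14 ± 1.35. PNx replicate 6 held 185 CPM and the other 5 PNx libraries at most 3.56, and without it the log2 fold change was 0.95.

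Of the 25 textbook target genes, 20 passed the filter, 2 were higher in PNx and none lower at that p-value, and 15 lay above 0 and 5 below. Traf1 was at 2.65 ± 1.70 CPM in Control and 18.9 ± 18.9 in PNx, a log2 fold change of 2.84 ± 0.96. Traf1 levels in PNx replicates 1, 2 and 3 were 34.3, 42.4 and 30.8 CPM and in the other 3 at most 3.02, and without the former the log2 fold change was -0.44. Tnf, Il6 and Ccl20 had 0 counts in all 24 libraries. Il1b was at 3.78 ± 3.07 CPM in Control and 1.01 ± 0.816 in NaKtide, a log2 fold change of -1.89 ± 0.80 with a BH-adjusted p-value of 1 by edgeR. Socs1, a feedback inhibitor, had a log2 fold change of 2.27 ± 1.05 in PNx+NaKtide against NaKtide. It rested on PNx+NaKtide replicates 2, 3 and 4, at 6.13, 7.86 and 6.14 CPM, with the other 3 at 0 to 0.832, and was -0.45 without the former. The chemokine gene Cxcl10 had a value of -1.97 ± 0.93 in the same comparison. NaKtide replicate 6 held 103 CPM of it and the other 5 NaKtide libraries 1.80 to 9.95, and without that library the value was -0.049.

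In the interaction, 3 of the 70 list genes were higher and 5 lower at an unadjusted p-value under 0.05, which 9.27% of all genes passed. Ikbkg had 1.88 ± 0.68, which was 1.15 without PNx replicates 1, 2 and 3. Tlr9 had 2.24 ± 1.06, on levels of at most 6.69 CPM in PNx+NaKtide and 2.25 in NaKtide, and 4.67 without those libraries. Irak3 (-2.18 ± 0.84) and Tollip (-1.78 ± 0.80) were at -0.64 and -0.23 without them, and at -3.45 and -2.68 without PNx+NaKtide replicates 2, 3 and 4. Map3k7 was at -1.62 ± 0.76, and at -1.01 without the latter. Cd36 was at -4.23 ± 1.87, and at -0.15 without PNx replicate 6, -1.42 without NaKtide replicate 6 (50.4 CPM) and 2.67 without both. No other library was above 12.7 CPM for Cd36.

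**Figure D4:**
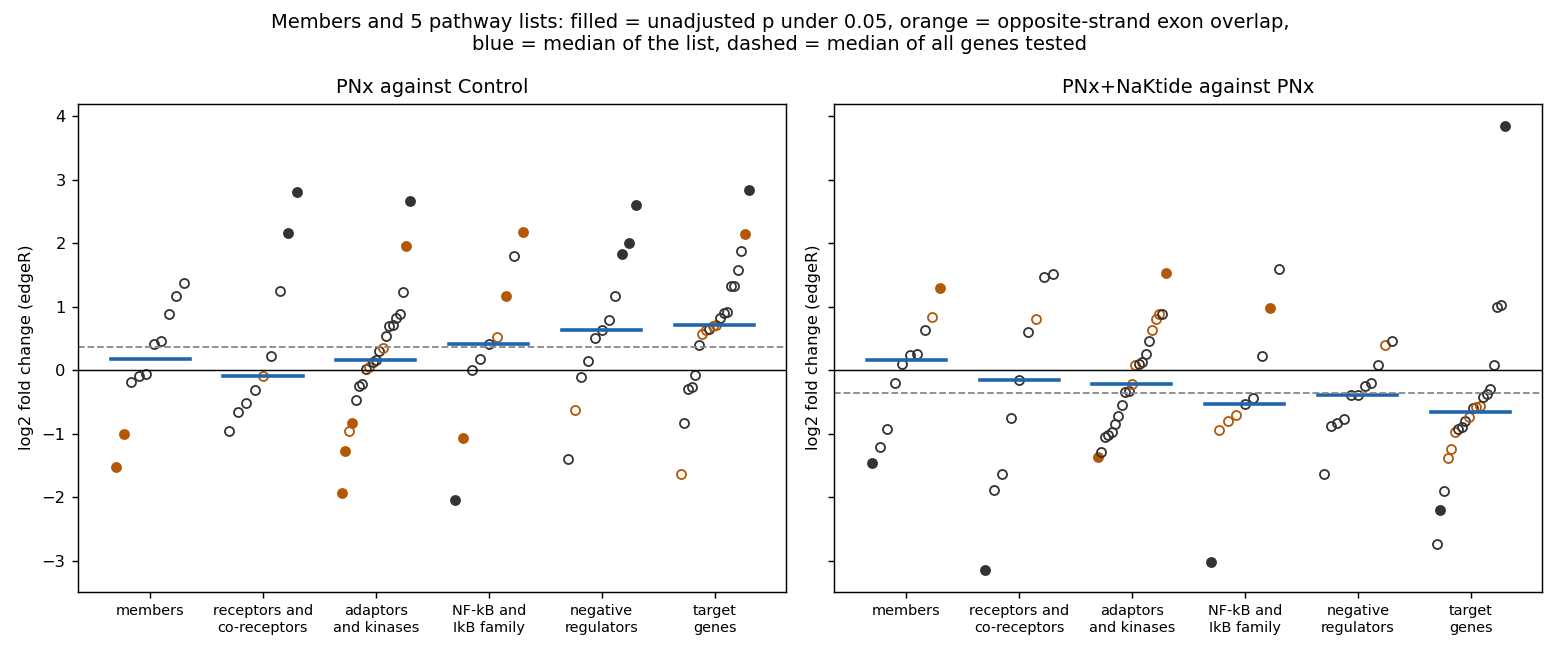
Log2 fold change (y axis) of the members and of the tested genes of the 5 pathway lists (x axis), in PNx against Control (left) and PNx+NaKtide against PNx (right). Each circle is a gene, filled at an unadjusted p-value under 0.05 and orange where its exons overlap an opposite-strand gene, and the blue bars give each list's median, such as 0.17 for the members beside 0.36 for all genes in the left panel.

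Of the 80 members and list genes tested, 21 had an exon overlap with an opposite-strand gene. Of the 7 that were lower in PNx than in Control at an unadjusted p-value under 0.05, 6 had it (Ikbke, Ikbkg, Irak4, Myd88, Nfkb2 and Nfkbil1), and of the 11 that were higher, 4 had it (Bcl3, Irak3, Nfkbib and Vcam1). Over all 26116 genes tested, 31.1% had an overlap, as did 49.3% of those lower and 25.8% of those higher at the same p-value. Of the genes that differed between PNx+NaKtide and PNx, 3 of the 4 higher genes had one (Ikbkg, Myd88 and Nfkbil1) and 1 of the 5 lower (Irak3), beside 47.3% and 20.7% of all genes. The part of the strand of counting in these differences was not tested.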

How the data were processed

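Adipose RNA of 24 mice was sequenced as paired reads from stranded mRNA libraries. Per the labels and methods, the authors trimmed reads with Trimmomatic 0.38, aligned them to GRCm38 with HISAT2 2.1.0 and counted them per gene with GenomicAlignments. Neither the strand setting nor the annotation they counted on is given in the sources used here. Raw counts deposited by the authors were tested, and their deposited FPKM were used for levels between genes and for alternatives. Their size-factor normalized values were not used here, and their processing notes also name DESeq2 1.20.0.

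Symbols and exons came from GENCODE M21 (54165 of 54232 identifiers found). Genes with more than 10 counts in all were tested with edgeR 4.0.16 (R 4.3.3), TMM scaling and the robust quasi-likelihood test, with all 4 groups in 1 model. Calls used a Benjamini-Hochberg adjusted p-value under 0.1, and the biological coefficient of variation was 71.4%. Each SE was obtained from the F statistic, as the size of the log2 fold change over the root of F. P-values measure the spread between libraries, 1 per mouse. Alternatives used DESeq2 1.42.0, limma 3.58.1 voom, limma on log2(FPKM + 1) and log2(FPKM + 0.1), other scalings and filters, a replicate block and left-out libraries. The fits were checked on simulated counts.

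The members, pathway lists, markers and tests were chosen with earlier results of these data known. Named are the members, their opposite-strand partners, per comparison and direction at most 4 list genes of smallest unadjusted p-value under 0.05 with a mean of at least 1 CPM, and the 2 genes most like each member of at least 240 counts. List genes named for counts of 0 to 4, and those listed by their overlap, were chosen after their values were seen. Replicates of a group always differed by more than counting noise (lowest chi-square per degree of freedom 1.57).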

Additional observations from a re-analysis of the deposited data

Results flagged for a closer look

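Of the 40 sets of 6 libraries (10 members in 4 groups), 4 held a library whose gap to the nearest other exceeded Dixon's critical value. For normal values, chance alone marks about 1 set in 20. Many counts here are low and the sets share libraries, so that rate cannot be applied to them. Tlr4 in PNx replicate 6 was at 3.02 CPM, with the next library at 0.785. Chuk was at 8.68 CPM in PNx replicate 6, with the next at 3.28, and at 4.18 CPM in Control replicate 1, with the next at 1.23. Nfkbia in PNx replicate 6 was at 26.0 CPM, with the next at 5.5.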

How the results depend on the processing

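The receptors and Chuk had the fewest counts, each under 100 in all. The parts of depth and of the strand of counting in this were not tested. Over the counts of members and list genes, 202 of 266 values under other settings stayed within 1.5 times the value reported and 64 did not. With single libraries left out, 414 of 480 stayed and 66 did not. Of the members' log2 fold changes, 552 of 576 values with 1 library left out kept their direction and their side of the threshold, 19 changed direction and 5 newly passed the threshold. Under the other settings 236 of 297 stayed, 41 changed direction and 20 newly passed the threshold. These tallies of log2 fold changes cover all members in PNx against Control and in PNx+NaKtide against PNx. For the interaction they cover only Tlr4, Myd88, Chuk and Nfkb2. The other results of the members, whose sign changes are counted below, are not in them. Over all genes, 20 were called in PNx against Control with the TMM scaling, 8696 with DESeq2 size factors, 4102 with library size scaling, 2159 of 12050 with filterByExpr, 7764 by DESeq2, 16654 by voom, and 1 each with no filter and with the replicate block. The cause was not tested for the changes below, beyond the fewer genes or libraries that a setting itself leaves.

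In PNx against Control, 0 members and 0 list genes were called by edgeR. These counts were 2 and 19 with DESeq2 size factors, 1 and 9 with library size scaling, 1 and 9 with filterByExpr (which kept 6 members and 24 list genes), 2 and 22 by DESeq2, 7 and 35 by voom, and 1 and 12 without PNx replicate 6 and NaKtide replicate 6. The shares of all genes called were 0.0766% by edgeR, 33.3% with DESeq2 size factors, 15.7% with library size scaling and 17.9% with filterByExpr. They were 29.7% by DESeq2 and 63.8% by voom, and the share without PNx replicate 6 and NaKtide replicate 6 is not given here. At an unadjusted p-value under 0.05, the 2 members became 7 by voom and 1 with the compared groups only, and the 16 list genes became 27 with DESeq2 size factors, 26 by DESeq2, 34 by voom and 9 without PNx replicates 1, 2 and 3. The share of all genes moves with the setting too, so the counts here and below describe the settings and are no result about the members.

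For PNx+NaKtide against PNx, 1 member and 4 list genes were called by DESeq2, 4 and 25 by voom, and 1 and 6 without PNx+NaKtide replicates 2, 3 and 4, a setting added after the data were seen that called 3746 of 25675 genes. At an unadjusted p-value under 0.05, the 2 members became 1 with no filter, 1 with filterByExpr, 5 by voom and 4 with log2(FPKM + 1). The 7 list genes became 18 with DESeq2 size factors, 11 with library size scaling, 15 by DESeq2, 25 by voom, 13 without PNx replicates 1, 2 and 3, 11 without PNx replicate 6 and NaKtide replicate 6 and 14 under the added setting. In the interaction, voom called 4 members and 15 list genes. At an unadjusted p-value under 0.05, the 1 member became 0 with DESeq2 size factors, library size scaling and filterByExpr, 5 by voom, and 2 with either FPKM setting, and the 8 list genes became 5 with filterByExpr, 5 by DESeq2, 22 by voom, 14 without PNx replicates 1, 2 and 3 and 5 without PNx replicate 6 and NaKtide replicate 6. In NaKtide against Control, the 1 list gene became 2 with DESeq2 size factors, filterByExpr, DESeq2 and log2(FPKM + 0.1), 4 by voom, 5 with the compared groups only, 3 without PNx replicates 1, 2 and 3 and 2 under the added setting. Between PNx+NaKtide and NaKtide, the 5 list genes became 1 with filterByExpr and by DESeq2, 3 with the compared groups only and with log2(FPKM + 0.1), 2 with log2(FPKM + 1) and without PNx replicate 6 and NaKtide replicate 6, and 0 under the added setting.

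Log2 fold changes in PNx against Control changed sign as follows. Ikbkb was 0.19 with DESeq2 size factors, 0.14 with library size scaling, 0.073 with filterByExpr, 0.18 by DESeq2, 0.067 and 0.12 with log2(FPKM + 1) and log2(FPKM + 0.1), and 0.49 without PNx replicates 1, 2 and 3. Irak1 was 0.096, 0.15, 0.063 and 0.097 under the first 4 of these settings and 0.78 under the last. Rela was 0.072 with DESeq2 size factors, 0.090 with library size scaling, 0.079 by DESeq2 and 0.39 without PNx replicates 1, 2 and 3. Nfkbia was -2.01 by voom, -0.20 and -0.78 with the FPKM settings and -1.31 without PNx replicate 6 and NaKtide replicate 6, where Nfkb1 was -0.0778. Tlr4 was -0.17 by voom. Between PNx+NaKtide and PNx, Ikbkb was -0.0865, -0.0798, -0.0301, -0.0794, -0.0321, -0.0545 and -0.50 under the settings listed for it above, Irak1 was -0.60 without PNx replicates 1, 2 and 3, and Rela was -0.00787 with library size scaling, -0.0258 with log2(FPKM + 0.1) and -0.33 without PNx replicates 1, 2 and 3. Nfkbia was 1.95 by voom, 0.39 and 1.00 with the FPKM settings 1.51 without PNx replicate 6 and NaKtide replicate 6 and 0.32 without PNx+NaKtide replicates 2, 3 and 4, and Tlr4 was 0.30 by voom. Over the settings, 6 of 10 members changed sign in NaKtide against Control and 7 of 10 in PNx+NaKtide against NaKtide, as did the 6 members summarised only by their range in the interaction.

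With each library left out in turn, the members called in PNx against Control ranged from 0 to 2 and the list genes from 0 to 18, both highest without PNx replicate 4, where 33.2% of all genes were called. The members at an unadjusted p-value under 0.05 ranged from 1 to 3 there, from 1 to 4 in PNx+NaKtide against PNx (4 when PNx replicate 5 was left out) and from 0 to 2 in the interaction. The list genes ranged from 0 to 3 in NaKtide against Control, from 2 to 7 in PNx+NaKtide against NaKtide, from 5 to 18 in PNx+NaKtide against PNx and from 4 to 13 in the interaction. Log2 fold changes in PNx against Control ranged from -0.35 to 0.10 for Ikbkb, -0.49 to 0.21 for Irak1, -0.079 to 0.66 for Nfkb1 and -1.30 to 0.67 for Nfkbia. For PNx+NaKtide against PNx they ranged from -0.14 to 0.35 for Ikbkb, -0.11 to 0.67 for Irak1 and -0.46 to 1.503 for Nfkbia.

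Over the 36 pairs of libraries with the same replicate number, deviations from the group means were correlated at -0.592 to 0.712. The correlation was over 0.1 in 19 pairs. The labels give these libraries only the same number, and whether they share anything else was not tested. With the replicate block, 0 members were called in any comparison, and 2, 2 and 2 members were at an unadjusted p-value under 0.05 in PNx against Control, PNx+NaKtide against PNx and the interaction. The block gave Nfkbia -0.47 in PNx against Control and 0.53 in PNx+NaKtide against PNx, both of the opposite sign to the fit without it.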
